A study of Mus musculus with 4 samples.

Results

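The nuclear-encoded subunit genes of respiratory complexes II, III and IV and of ATP synthase (complex V) were followed in lung metastases of mice given saline or the ADC/cmLumiOpto combination. Members were the protein-coding genes outside the mitochondrial chromosome named Sdha, Sdhb, Sdhc or Sdhd, with names starting with Uqcr or Atp5, or with Cox4 to Cox8 followed by a letter. The names picked out 49 of 56748 genes, namely 4 of complex II, 8 of complex III, 19 of complex IV and 18 of complex V. The rule itself uses names and gene types only, but it was set with earlier results of these data known. A further 12 genes had matching names but another gene type, all processed pseudogenes, and stayed outside. The names also bring in Cox7a2l, which helps to join complexes III and IV into supercomplexes, and Cox5b-ps, which the table lists as protein-coding although its name marks it as a pseudogene, while Cyc1 of complex III and Ndufa4 of complex IV have other names and are given with the related genes.

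Complex II oxidizes succinate and passes the electrons to ubiquinone, complex III carries them from ubiquinol to cytochrome c, and complex IV hands them to oxygen. Complexes III and IV pump protons across the inner mitochondrial membrane, and complex V lets the protons flow back through a rotor and makes ATP in its catalytic head. Complex II is encoded wholly in the nucleus, whereas in the other 3 complexes a few subunits come from mitochondrial DNA, and several complex IV subunits have a ubiquitous isoform and a second one restricted to heart and muscle, lung or testis.

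The mice were BALB/cJ females, 7 weeks old when luciferase-expressing 4T1 cells, a mouse line of triple-negative breast cancer, were injected into the tail vein. One group received saline. The other received an antibody-drug conjugate (ADC) of an anti-CD276 antibody with the microtubule inhibitor mertansine, together with cmLumiOpto, an exosome-coated AAV that expresses under a cfos promoter a light-gated channel placed in the inner mitochondrial membrane and a luciferase that lights it once the substrate ViviRen is given. Each group had 2 samples in these data, replicates 1 and 2, and the study's methods speak of 4 per group. The sources differ on details: the methods give ADC at 8 mg/kg with ViviRen at 2 mg/kg, dissociated lung tissue and saline, whereas the sample labels give 16 mg/kg of ADC, add the abbreviation Olap, name harvested tumor cells after 3 weeks of treatment and call the control PBS. Nothing in the labels says whether the samples were separate mice, so p-values measure the spread between these samples only.

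The libraries held between 15263375 and 19675436 counts, and 3 counts, taken as a detection floor for counting error only, corresponded to 0.146 to 0.202 CPM (counts scaled to the library size after TMM). A total of 15320 genes passed the filter on low counts, and the groups were compared by edgeR's two-sided quasi-likelihood test over all of them. No gene passed an adjusted p of 0.05 (0%), whereas at an unadjusted p under 0.05 11% of tested genes were higher and 12.2% lower after treatment. With upper-quartile scaling the genes at that p were higher in 60.6% of cases, against 47.6% with TMM. In 28.1% of tested genes both treated libraries were above both saline libraries and in 28.8% both were below. The edgeR exact test called 3.96% of genes higher and 3.68% lower at an adjusted p under 0.05, and DESeq2 called 3.78% higher and 5.05% lower.

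Of the 49 members, 44 passed the filter. Their levels summed to 6767 and 6780.0 CPM in the saline libraries and 9341 and 7264 CPM in the treated libraries. The saline samples were almost equal and the treated samples were both above them, replicate 1 by more. Of the 44 tested members, 40 had a positive and 4 a negative log2 fold change, with a median of 0.44 against 0.03 over all tested genes. At an unadjusted p under 0.05, 13 members were higher in the quasi-likelihood test, 12 in the exact test and 15 in DESeq2, and 0 were lower in any of them. Over all genes the exact test and DESeq2 put 11.6 and 10.6% higher at that p. In 29 members, or 65.9%, the groups did not overlap and the treated values were the higher ones. Only Sdha and Uqcrc1 had both treated values below. No member passed an adjusted p of 0.05 in the quasi-likelihood test, where adjusted p ran from 0.116 to 0.999. The exact test called 5 members higher and 0 lower (Uqcrh, Uqcr11, Uqcrq, Atp5e and Cox4i2), and DESeq2 called these 5 and also Uqcr10, Atp5md and Cox4i1.

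**Figure D1:**
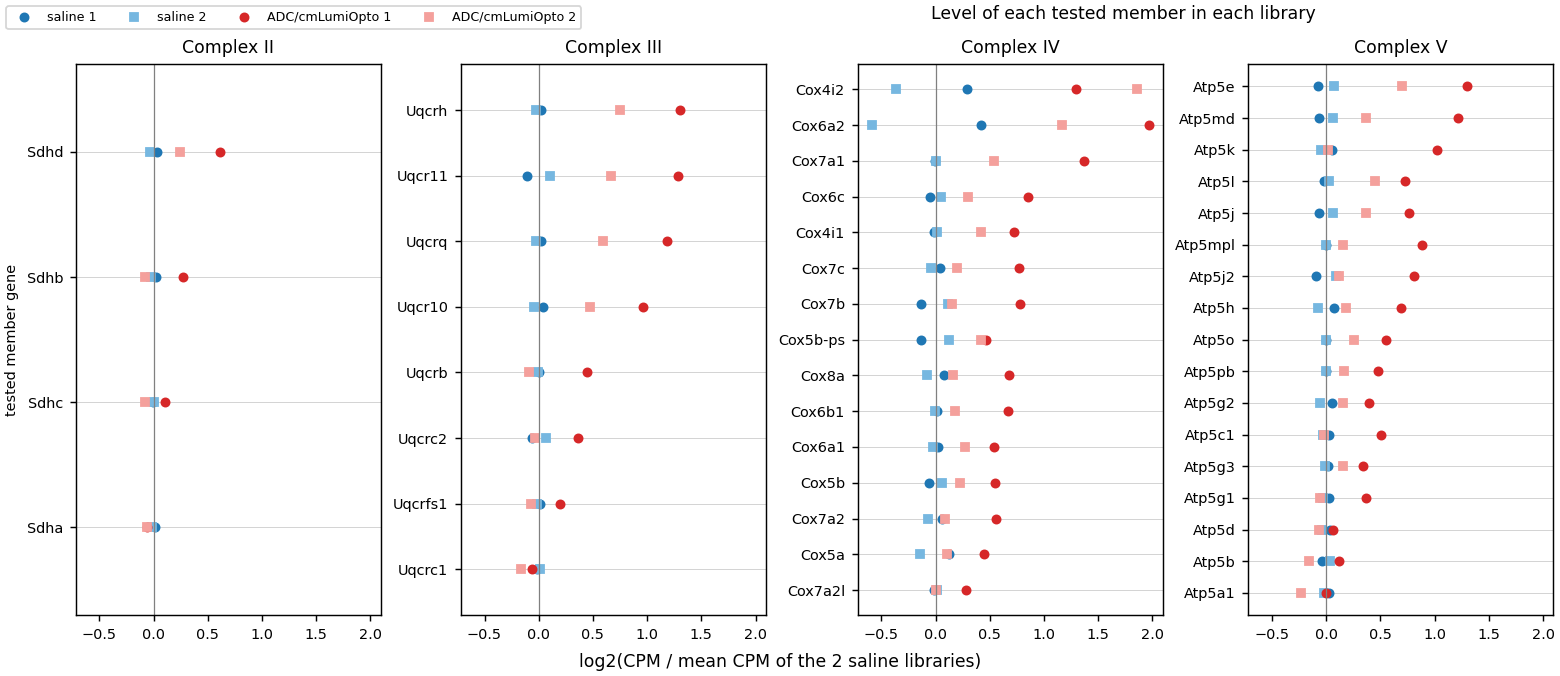
Level of each of the 44 tested members in each library, as log2 of its CPM over the mean CPM of the 2 saline libraries; circles are replicate 1 and squares replicate 2. ADC/cmLumiOpto replicate 1 was the highest library for 40 of 44 members, and the saline libraries lie close to 0 for nearly all but Cox4i2 and Cox6a2.

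ADC/cmLumiOpto replicate 1 carried more of the difference than replicate 2. It was the highest of the 4 libraries for 40 of 44 members, and it was above replicate 2 for 43 of 44, with a median log2 difference of 0.40. Between the saline libraries the same median was 0.02. The fits with a library left out tested 44 or 45 members, since the filter was applied anew. Without ADC/cmLumiOpto replicate 1 the median log2 fold change of the members was 0.17 and 8 were higher at an unadjusted p under 0.05 (8.9% of all genes were), and without ADC/cmLumiOpto replicate 2 it was 0.58 with 27 members (10.4% of all genes). Leaving out a saline library left the median at 0.41 or 0.42, with 7 members without replicate 1, among them Cox6b2, and 6 without replicate 2 (10.5 and 5.25% of all genes). The 4 members Uqcrh, Uqcr11, Uqcrq and Atp5e, with Cox4i2, were among those at p under 0.05 in each of these fits. Scaling moved the count of members higher at an unadjusted p under 0.05. With library size alone or with upper-quartile factors 21 members were, against 12.3 and 14% of all genes. With no filter beyond 1 count in total 22 of 46 members were, against 10.1%.

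In complex III 4 small accessory subunits differed more than the core proteins and the Rieske protein, while the small accessory subunit Uqcrb did not stand apart. Uqcrh, the acidic hinge protein beside cytochrome c1 (ENSMUSG00000063882, chromosome 4), measured 103 and 99.6 CPM in saline replicates 1 and 2 and 249.9 and 169.8 CPM in ADC/cmLumiOpto replicates 1 and 2. Both treated libraries were above both saline libraries, which were almost equal, and the log2 fold change was 1.05 ± 0.22 (adjusted p = 0.116). Uqcr11, a small subunit of the membrane part (ENSMUSG00000020163, chromosome 10), measured 44.9 and 51.8 CPM in the saline libraries and 118 and 76.9 CPM in the treated libraries, a log2 fold change of 1.01 ± 0.24 (adjusted p = 0.123). Uqcrq, another small membrane subunit (ENSMUSG00000044894, chromosome 11), measured 52.9 and 51.1 CPM in the saline libraries and 118 and 78.5 CPM in the treated libraries, or 0.92 ± 0.23 as a log2 fold change (adjusted p = 0.123). For these 3 genes the fitted fold was much the same, between 1.89-fold and 2.07-fold. Uqcr10, also a small membrane subunit (ENSMUSG00000059534, chromosome 11), measured 66.9 and 63.3 CPM in the saline libraries and 126 and 90.3 CPM in the treated libraries, a log2 fold change of 0.74 ± 0.21 (adjusted p = 0.132).

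The other members of complex III did not follow. Uqcrc1, core protein 1 and the largest subunit (ENSMUSG00000025651, chromosome 9), measured 219.7 and 223 CPM in the saline libraries and 212 and 198 CPM in the treated libraries. Both treated values were the lower ones, by less than the standard error of the comparison (log2 fold change -0.11 ± 0.15 (adjusted p = 0.686)). The Rieske iron-sulfur protein Uqcrfs1, which takes the first electron from ubiquinol, measured 108 and 106 CPM in the saline libraries and 122 and 102 CPM in the treated libraries, and the groups overlapped at a log2 fold change of 0.07 ± 0.17 (adjusted p = 0.845). Core protein 2, Uqcrc2, stood at 0.18 ± 0.19 and the ubiquinone-binding subunit Uqcrb at 0.20 ± 0.21, both overlapping between groups. The median of the 8 complex III members was 0.47, with 4 of 8 higher at an unadjusted p under 0.05 (11% of all tested genes were). With the trend on coding length removed, as described below, 3 of 8 were, and the median was 0.19. The summed level of complex III members was 758 and 768 CPM in the saline libraries and 1165 and 877 CPM in the treated libraries.

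In complex V the larger differences were in small subunits of the stalks and the membrane part. Atp5e encodes the epsilon subunit, the smallest protein of the central stalk (ENSMUSG00000016252, chromosome 2), and measured 80.3 and 89.2 CPM in saline replicates 1 and 2 and 209 and 138 CPM in ADC/cmLumiOpto replicates 1 and 2. The treated values did not overlap the saline values, and the log2 fold change was 1.03 ± 0.23 (adjusted p = 0.116). Atp5md, whose product DAPIT sits in the membrane part (ENSMUSG00000071528, chromosome 19), measured 68.3 and 74.7 CPM in the saline libraries and 166 and 92.2 CPM in the treated libraries. Its log2 fold change was 0.85 ± 0.28 (adjusted p = 0.159), and most of it came from replicate 1. Subunit g, Atp5l, which helps hold ATP synthase dimers together (ENSMUSG00000038717, chromosome 9), measured 67.8 and 70.1 CPM in the saline libraries and 114 and 94.3 CPM in the treated libraries, a log2 fold change of 0.60 ± 0.17 (adjusted p = 0.136). Coupling factor 6, Atp5j, a part of the peripheral stalk (ENSMUSG00000022890, chromosome 16), measured 84.5 and 92.3 CPM in the saline libraries and 150.2 and 114 CPM in the treated libraries, a log2 fold change of 0.58 ± 0.19 (adjusted p = 0.158). Replicates of the treated group were closest to each other for Atp5l among these 4 genes.

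The catalytic head of complex V measured about the same in both groups. Atp5b, the beta subunit that carries the catalytic sites (ENSMUSG00000025393, chromosome 10), was the most abundant member by CPM, with 946 and 999 CPM in the saline libraries and 1056 and 871 CPM in the treated libraries. The treated values lay on either side of the saline ones, and the log2 fold change was -0.01 ± 0.17 (adjusted p = 0.972) with TMM and turned positive with library size alone (0.029) or upper-quartile factors (0.073). Atp5a1, the alpha subunit, measured 772 and 749 CPM in the saline libraries and 758 and 648 CPM in the treated libraries, and its log2 fold change was -0.11 ± 0.17 (adjusted p = 0.711). Atp5d, the delta subunit of the central stalk, measured 165 and 157 CPM in the saline libraries and 169 and 154 CPM in the treated libraries, the smallest difference of any member (log2 fold change 0.00 ± 0.16 (adjusted p = 0.999)). The gamma subunit Atp5c1, which turns inside the head, measured 244 and 234 CPM in the saline libraries and 339 and 235 CPM in the treated libraries and stood at 0.27 ± 0.21.

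By part of complex V, the medians of the log2 fold change were -0.06 for the 2 head genes, 0.27 for the 3 genes of the central stalk, 0.25 for the 3 genes of the rotor ring, 0.43 for the 4 genes of the peripheral stalk and 0.60 for the 5 other membrane subunits. With the trend on coding length removed, as described below, that order was not kept. The medians were then 0.004 for the head, 0.14 for the central stalk, -0.085 for the rotor ring, 0.17 for the peripheral stalk and 0.047 for the other membrane subunits. All 4 peripheral stalk genes, Atp5j, Atp5h, Atp5o and Atp5pb, had treated values above saline values, at log2 fold changes between 0.33 and 0.58. The membrane subunits Atp5k, Atp5mpl and Atp5j2 stood at 0.60 ± 0.33, 0.56 ± 0.25 and 0.51 ± 0.25, and Atp5k overlapped between groups. Of the 17 tested complex V members, 4 were higher at an unadjusted p under 0.05 (11% of all tested genes were), and 1 was with the trend on coding length removed. The sum of complex V members was 3549.7 and 3570.2 CPM in the saline libraries and 4584 and 3580.0 CPM in the treated libraries. ADC/cmLumiOpto replicate 2 was thus close to saline in total, while its values for Atp5e, Atp5md, Atp5l and Atp5j were above saline. These parts were drawn from textbook structure, and differences between the medians were not tested.

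**Figure D2:**
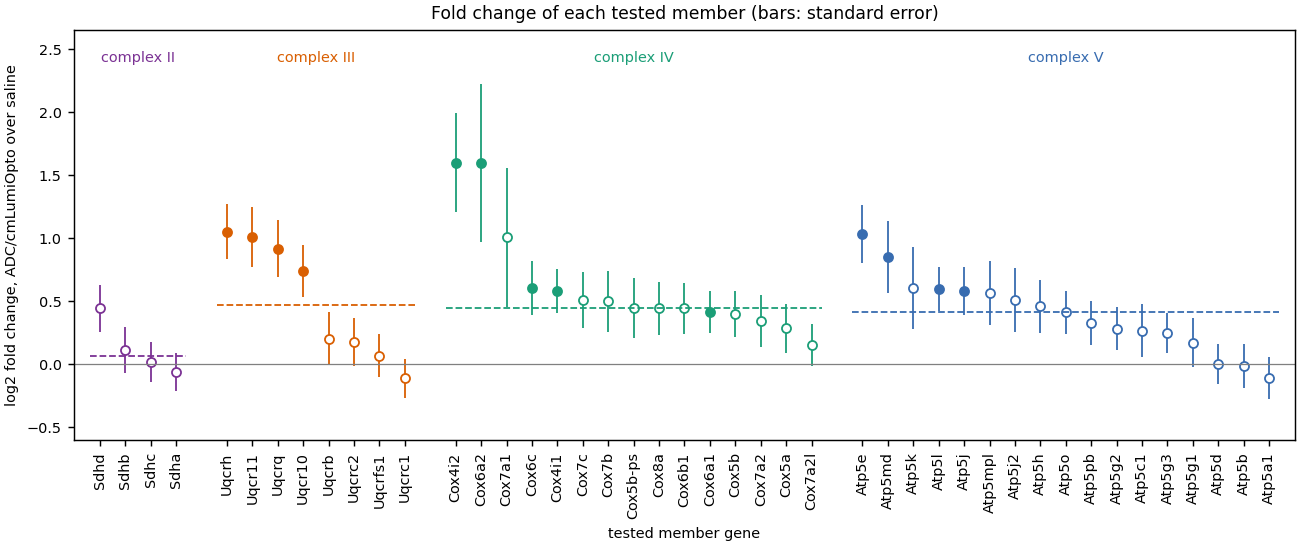
Log2 fold change of each tested member (ADC/cmLumiOpto over saline, edgeR quasi-likelihood fit) with its standard error; filled points have an unadjusted p under 0.05 and dashed lines are the medians of the complexes. The medians are 0.06, 0.47, 0.44 and 0.41 for complexes II, III, IV and V, and filled points appear only above 0. With the trend on coding length removed, which is not drawn here, these medians were 0.019, 0.19, 0.018 and 0.048.

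In complex IV most subunits, the ubiquitous ones included, stood above saline after treatment. All 15 tested members had a positive log2 fold change, 13 had both treated values above both saline values, and 5 were at an unadjusted p under 0.05. Over all tested genes 28.1% had both treated values above and 11% were higher at that p. With the trend on coding length removed, 1 of the 15 was higher at that p, and their median was 0.018. Cox4i1, the ubiquitous form of the largest nuclear-encoded subunit (ENSMUSG00000031818, chromosome 8), measured 465 and 472 CPM in saline replicates 1 and 2 and 776 and 627 CPM in ADC/cmLumiOpto replicates 1 and 2. The groups were apart by more than the difference within either (log2 fold change 0.58 ± 0.18 (adjusted p = 0.141)). Cox6c, a small membrane subunit (ENSMUSG00000014313, chromosome 15), measured 175 and 188 CPM in the saline libraries and 328 and 224 CPM in the treated libraries, a log2 fold change of 0.60 ± 0.22 (adjusted p = 0.174). Cox6a1, the ubiquitous form of a subunit at the dimer contact, measured 232 and 226 CPM in the saline libraries and 334 and 277 CPM in the treated libraries, a log2 fold change of 0.42 ± 0.17 (adjusted p = 0.204).

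The remaining ubiquitous subunits of complex IV spanned a narrow range. Cox7c, Cox7b, Cox8a, Cox6b1 and Cox7a2, all small subunits, stood between 0.34 and 0.51, with unadjusted p between 0.0568 and 0.144. Cox5b, the zinc-binding subunit on the matrix side, measured 86.6 and 94.03 CPM in the saline libraries and 132 and 106 CPM in the treated libraries (log2 fold change 0.40 ± 0.18 (adjusted p = 0.244)). Cox5a, its neighbour on the matrix side, measured 56.7 and 47.1 CPM in the saline libraries and 70.7 and 55.7 CPM in the treated libraries, and the groups overlapped (log2 fold change 0.28 ± 0.19 (adjusted p = 0.41)). The supercomplex factor Cox7a2l measured 274 and 280.0 CPM in the saline libraries and 336 and 278 CPM in the treated libraries and had the smallest difference of the complex IV names, 0.15 ± 0.17 (adjusted p = 0.621). Cox5b-ps, whose reads cannot be surely told from those of Cox5b, measured 10.7 and 12.8 CPM in the saline libraries and 16.2 and 15.8 CPM in the treated libraries; without it the members' median and the 13 members at an unadjusted p under 0.05 were the same.

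In complex II 0 of 4 members passed an unadjusted p of 0.05 in the quasi-likelihood test or the exact test, and 1, Sdhd, did in DESeq2. Sdha, the flavoprotein that oxidizes succinate (ENSMUSG00000021577, chromosome 13), measured 189.9 and 186 CPM in saline replicates 1 and 2 and 180.2 and 179.9 CPM in ADC/cmLumiOpto replicates 1 and 2. Both treated values were below both saline values, but by less than the standard error (log2 fold change -0.06 ± 0.15 (adjusted p = 0.836)), and with upper-quartile scaling the sign turned, to 0.023. The iron-sulfur protein Sdhb measured 89.6 and 87.2 CPM in the saline libraries and 107 and 83.7 CPM in the treated libraries, a log2 fold change of 0.11 ± 0.18 (adjusted p = 0.749). The membrane anchor Sdhc measured 146 and 147 CPM in the saline libraries and 158 and 139 CPM in the treated libraries, a log2 fold change of 0.02 ± 0.16 (adjusted p = 0.959). Groups overlapped for both. Sdhd, the other membrane anchor and the smallest of the 4 by coding length, measured 119 and 114 CPM in the saline libraries and 179 and 138 CPM in the treated libraries, with both treated values above saline (0.44 ± 0.18 as a log2 fold change, adjusted p = 0.216).

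The 5 members that did not pass the filter are isoforms known from other tissues and a duplicate entry. Cox6b2, the testis form, had 5 and 0 counts in the saline libraries and 8 and 20 in the treated ones. Cox8b, the heart and muscle form, had 2 and 0 counts in saline and 1 and 8 after treatment. Cox7b2 and Cox8c, both testis forms, and a second entry named Atp5o (ENSMUSG00000116933) were at 0 in all 4 libraries, so each library allows up to the 3-count floor given above.

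Ratios within a library do not depend on how the libraries were scaled, so each member was also set against 1 reference subunit of its complex, which was Sdha, Uqcrc1, Cox5a or Atp5b. Cox5a is not a core subunit, since the core of complex IV is encoded in mitochondrial DNA. Uqcrh counts were 46.8 and 44.6% in the saline libraries and 118 and 85.9% in the treated libraries of Uqcrc1 counts. The hinge protein thus went from under the core protein's count to near or above it, with no overlap. Uqcr11 counts were 20.4 and 23.2% in the saline libraries and 55.6 and 38.9% in the treated libraries of Uqcrc1, and all 7 members of complex III beside Uqcrc1 had both treated ratios above both saline ratios, Uqcrb, Uqcrc2 and Uqcrfs1 included. Atp5e counts were 8.48 and 8.94% in the saline libraries and 19.8 and 15.8% in the treated libraries of Atp5b counts. In complex V 14 of 16 members had both treated ratios above, 1 overlapped (Atp5d) and 1 was below, Atp5a1, at 81.6 and 74.96% in the saline libraries and 71.8 and 74.4% in the treated libraries. Against Cox5a the picture was less regular: 6 of 14 complex IV members were above, 8 overlapped and 0 were below. Against Sdha 1 of 3 complex II members, Sdhd, was above, at 62.7 and 61.5% in the saline libraries and 99.1 and 76.99% in the treated libraries. Members of one complex share the reference gene's own counts in each of these ratios. Uqcrc1 itself had both treated CPM values below saline, which raises every treated ratio to it, and Uqcrb, Uqcrc2 and Uqcrfs1 overlapped as CPM. Uqcrc1 and Atp5b, with 1440 and 1587 coding bases, are long genes, so these ratios do not remove the relation to coding length given below. Genes outside the complexes were not set against these references.

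**Figure D3:**
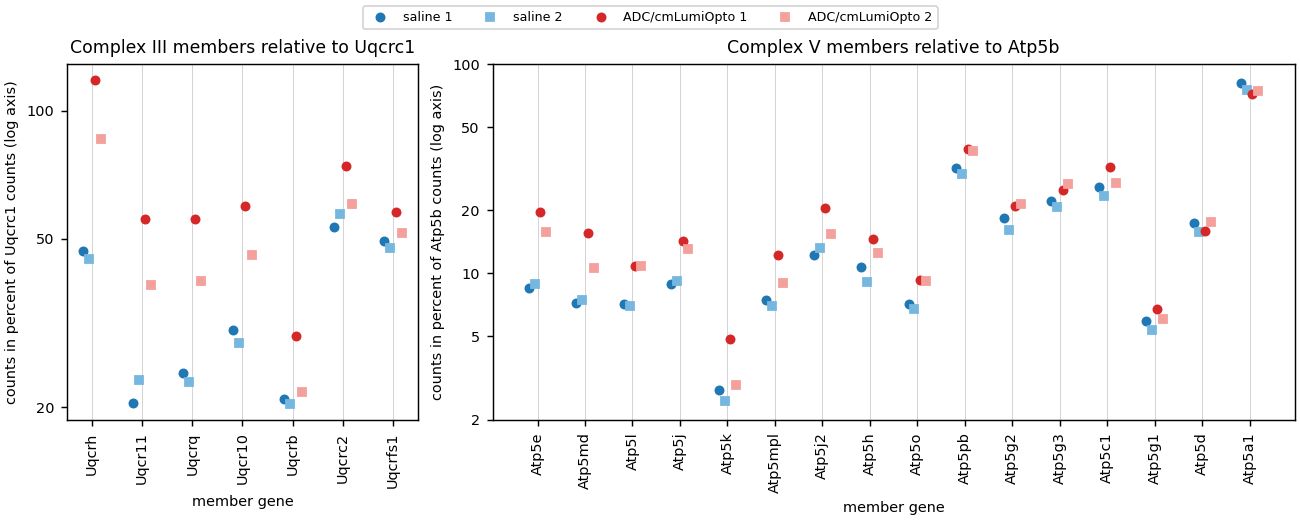
Counts of complex III members in percent of Uqcrc1 counts and of complex V members in percent of Atp5b counts, in each library, on log axes. The small subunits at the left are set apart by group, with Uqcrh going from 46.8 and 44.6% in saline to 118 and 85.9% after treatment, and the ratios of Atp5d and Atp5a1 at the right lie close together.

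The members with the larger differences encode the shorter proteins. Across the 44 tested members the log2 fold change and the coding length (longest coding sequence of the gene in GENCODE M21, without the stop codon) had a Spearman rho of -0.72. Across all 13517 tested genes with a coding length there, of any gene type, the rho was -0.38. The points of either correlation share the same 4 libraries and are not independent. Of the 21 members under the median coding length of 387 bases, 11 were higher at an unadjusted p under 0.05, with a median log2 fold change of 0.60. Of the 23 at or over it, 2 were, with a median of 0.25.

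Other genes of the same length had similar medians in the shortest bin and in the bins from 700 bases up. Among members with under 300 coding bases, the median log2 fold change was 0.60 (17 genes, 47.1% higher at an unadjusted p under 0.05), and among other protein-coding genes of that length it was 0.51 (228 genes, 37.7%). From 300 to under 450 bases the medians were 0.28 over 11 members and 0.45 over 621 other genes, and from 450 to under 700 bases they were 0.44 over 7 members and 0.26 over 1483 other genes. From 700 to under 1200 bases they were 0.19 over 4 members and 0.14 over 3192 other genes. At 1200 bases and over, where Sdha, Uqcrc1, Uqcrc2, Atp5a1 and Atp5b fall, the medians were -0.06 over 5 members and -0.14 over 7912 other genes. With a smooth trend on coding length taken out of each library, the median of the members was 0.047, and 5 of 44 were higher at an unadjusted p under 0.05 (Uqcrh, Uqcr11, Uqcrq, Atp5e and Cox4i2), near the 9.98% of all 13480 genes in that fit. With the listed gene length, which includes untranslated parts, in place of the coding length, the median was 0.15 with 9 members, against 9.98% of all genes there too. Both corrections also take out any difference that is shared by short genes for another reason, and the part of RNA quality or library preparation in the length trend was not tested. After the coding length correction 0.58, 0.42, 0.42 and 0.42 remained as the log2 fold changes of Uqcrh, Atp5e, Uqcr11 and Uqcrq, and those of Sdhc and Atp5d were -0.26 and -0.28.

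**Figure D4:**
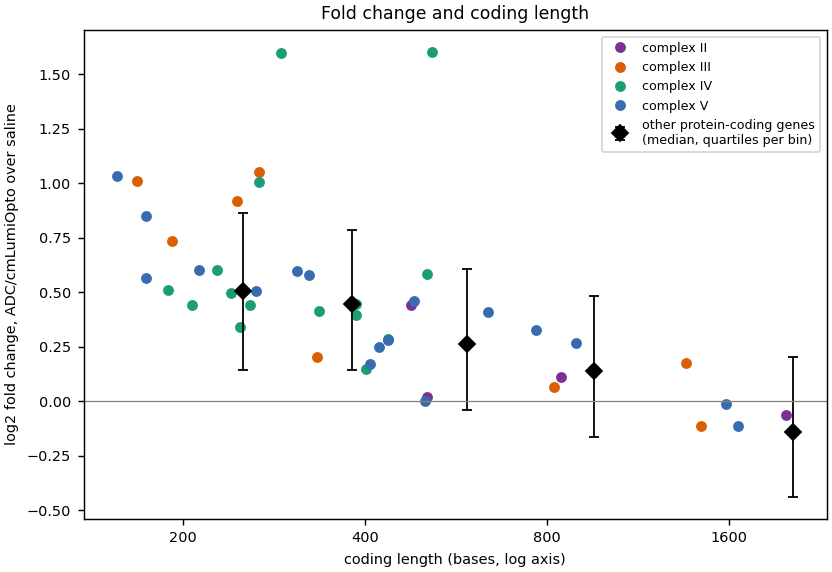
Log2 fold change (ADC/cmLumiOpto over saline) of the 44 tested members against coding length on a log axis, with the median and quartiles of the other protein-coding genes in 5 length bins as diamonds. The members follow the fall of the diamonds from 0.51 at under 300 bases to -0.14 at 1200 bases and over, with Cox4i2 and Cox6a2 far above it.

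Cox4i2 was the member farthest from genes of its own length. It is the isoform of the COX4 family known from lung and from hypoxic cells, and it takes the place of Cox4i1 in the enzyme. It had 63 and 37 counts in the saline libraries and 139 and 239 counts in the treated libraries (ENSMUSG00000009876, chromosome 2), or 3.94 and 2.49 CPM in the saline libraries and 7.88 and 11.7 CPM in the treated libraries. The treated values were the 2 highest although the replicates of each group differed, and the log2 fold change was 1.60 ± 0.39 (adjusted p = 0.123). As counts per kilobase of listed gene length, Cox4i2 made up 1.64 and 1.03% in the saline libraries and 1.96 and 3.53% in the treated libraries of the COX4 pair, so Cox4i1 held between 96.5 and 99.0%. It was the only one of the 44 tested members with ADC/cmLumiOpto replicate 2 above replicate 1.

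The heart and muscle isoforms Cox6a2 and Cox7a1 had both treated values above both saline values, at low counts, while Cox8b, given above with the untested members, overlapped between groups. Cox6a2 had 13 and 6 counts in the saline libraries and 42 and 28 counts in the treated libraries, a log2 fold change of 1.60 ± 0.63 (adjusted p = 0.198), and passed the filter with only 1 of the saline libraries above the minimum. Its place among the 13 members at an unadjusted p under 0.05 thus rests on its treated counts for passing the filter too. Its share of the COX6A pair was 0.3598 and 0.185% in the saline libraries and 0.731 and 0.506% in the treated libraries. Cox7a1 had 15 and 14 counts in the saline libraries and 43 and 28 counts in the treated libraries, a log2 fold change of 1.01 ± 0.55 (adjusted p = 0.311). It made up 0.631 and 0.643% in the saline libraries and 1.27 and 0.903% in the treated libraries of the COX7A family, in which Cox7a2l held 63.2 to 69.1%. These shares were not tested. The 3 genes of the rotor ring, Atp5g1, Atp5g2 and Atp5g3, encode the same mature protein, and their shares hardly moved: Atp5g1 was 5.400 and 5.42% in the saline libraries and 5.41 and 4.698% in the treated libraries of the family, and the log2 fold changes of the 3 were 0.17, 0.28 and 0.25. Cox6b1 and Cox8a held at least 99.5% of their families and Cox7b all of its own.

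**Figure D5:**
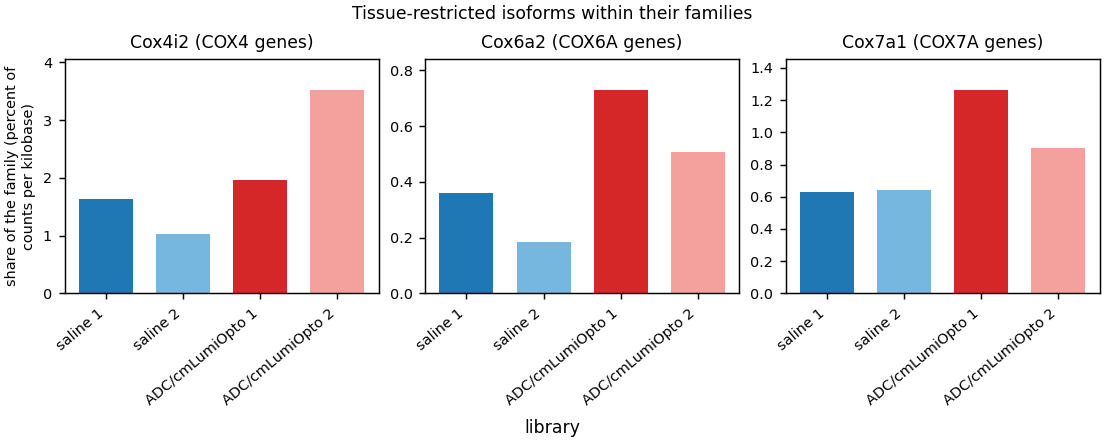
Share of Cox4i2, Cox6a2 and Cox7a1 in their gene families (percent of counts per kilobase of listed gene length), one bar per library. Both treated bars are above both saline bars in each panel, at shares of at most 3.53, 0.731 and 1.27%.

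Markers of other cell types also differed between the groups, and in bulk RNA fewer cells of a kind and less RNA per cell cannot be told apart. The 9 genes of the mural and smooth muscle list, which includes pericyte markers, went both ways beside Cox4i2. Higd1b measured 3.75 and 2.09 CPM in the saline libraries and 9.01 and 10.2 CPM in the treated libraries, Rgs5 7.69 and 4.45 CPM in the saline libraries and 10.9 and 16.2 CPM in the treated libraries and Kcnk3 1.44 and 0.472 CPM in the saline libraries and 2.27 and 5.22 CPM in the treated libraries, while Acta2 and the pericyte marker Pdgfrb had log2 fold changes of -0.95 ± 0.27 and -0.58 ± 0.20. The pericyte markers Cspg4 and Notch3 stood at -0.30 ± 0.27, with both treated values the lower ones, and 0.19 ± 0.39, with overlap. Of the 9 genes 3 were higher and 2 lower at an unadjusted p under 0.05, against 11 and 12.2% of all tested genes. The list's sum was 266 and 280.5 CPM in the saline libraries and 194 and 196 CPM in the treated libraries. Beside Cox6a2 and Cox7a1, cardiac Myh7 measured 0.7502 and 0.674 CPM in the saline libraries and 2.78 and 5.22 CPM in the treated libraries, 1 of the 7 tested cardiac genes at an unadjusted p under 0.05, and Myl2 had a log2 fold change of -1.48 ± 0.71. The cardiac list summed to 104 and 93.2 CPM in the saline libraries and 87.3 and 131 CPM in the treated libraries, of which Tnnt2 made up most, with Nppa, Pln and Ryr2 at or near the floor. Brown fat markers summed to at most 0.472 CPM and spermatid markers to at most 1.30 CPM, with Acrv1, Prm2 and Tnp1 at 0. The part of these cells in the isoform values was not tested.

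Lung cell markers were present in the samples, whose titles name tumor in lung and whose labels also name harvested tumor cells. The 8 alveolar type 2 markers summed to 1713 and 459 CPM in the saline libraries and 5782 and 4994 CPM in the treated libraries, 7 of 8 higher at an unadjusted p under 0.05, and the club and ciliated markers to 1155 and 85.3 CPM in the saline libraries and 6238 and 2978 CPM in the treated libraries. The saline samples differed several-fold in the alveolar type 2 sum. Over all tested genes 11% were higher and 12.2% lower at an unadjusted p under 0.05. Neutrophil markers summed to 1272 and 536 CPM in the saline libraries and 1207 and 7951 CPM in the treated libraries, with ADC/cmLumiOpto replicate 2 far above the rest, and erythroid markers to 1109.9 and 352 CPM in the saline libraries and 1871 and 2075 CPM in the treated libraries. Fibroblast markers, at 5071 and 3466 CPM in the saline libraries and 1722 and 1397 CPM in the treated libraries, and the proliferation list, at 1379 and 1395 CPM in the saline libraries and 969.9 and 863 CPM in the treated libraries, were lower after treatment in 6 of 6 and 5 of 8 genes at that p. The epithelial markers Krt8, Krt18, Krt19, Krt14, Epcam and Cdh1 were detected in all libraries and summed to 2638 and 3022 CPM in the saline libraries and 2574 and 2475 CPM in the treated libraries. Macrophage markers, with 0 of 6 at that p in the quasi-likelihood test and 1 in DESeq2, summed to 1279 and 923 CPM in the saline libraries and 1625 and 1148 CPM in the treated libraries. Endothelial, alveolar type 1 and leukocyte lists had 3 of 7, 5 of 5 and 4 of 7 genes higher and 0 lower, and of the 4 tested skeletal muscle genes 1 was higher. The part of these cells in the members' values was not tested.

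The upstream sequences show what the members with larger and smaller differences carry near their starts. RefSeq promoter windows on GRCm38.p6, from 250 bases before to 50 bases after a start, were matched by symbol or a unique synonym to 33 of the 44 tested members. The motif bound by ETS factors such as GABP (CCGGAAG on either strand) was found in 13 of 33 members (39.4%), against 18.8% of 10739 tested protein-coding genes with a window and 8.86% of all 32851 windows. Of these 13 members 7 were higher at an unadjusted p under 0.05, with a median log2 fold change of 0.58, and of the other 20 members 1 was, with a median of 0.28. The 11 tested members without a window include 5 of the 13 at that p, Cox4i1, Cox4i2, Cox6a2, Cox6c and Uqcrq, so this split leaves them out. The split was not matched for coding length, to which the members' log2 fold change was related (Spearman rho of -0.72). Sdha, Atp5b and Uqcrc1, with 1992, 1587 and 1440 coding bases, lack the motif, as do short members such as Uqcr10 with 192. Sdhb, with 846, has the motif at a log2 fold change of 0.11. The part of coding length in the difference between the medians was not tested. The NRF1 motif (GCGCATGCG) was in 6 of 33 members (18.2%) against 3.85% of the tested genes and 1.75% of all windows. YY1's AGATGGCGG was in 1 (3.03% against 2.57% and 1.07%), and TATAAA in 2 (6.06% against 9.27% and 13.6%). A match says only that the letters are there. The 150 bases before the start are shown for 3 members with the ETS motif, of which 2 are the accessory subunits of complex III with the largest differences, and for the core subunits Uqcrc1 and Atp5b, which had log2 fold changes near 0 and have none of the 4 motifs in this stretch, although the whole window of Uqcrc1 holds the NRF1 motif. Capitals mark the ETS motif, read as CTTCCGG where it lies on the other strand, and no other motif searched for overlapped it.
Uqcrh (chr4:116075071-116075220, minus strand): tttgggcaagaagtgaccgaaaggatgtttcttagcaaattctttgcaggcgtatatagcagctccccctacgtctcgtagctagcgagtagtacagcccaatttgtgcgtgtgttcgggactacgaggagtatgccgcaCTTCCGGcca
Uqcr11 (chr10:80406822-80406971, minus strand): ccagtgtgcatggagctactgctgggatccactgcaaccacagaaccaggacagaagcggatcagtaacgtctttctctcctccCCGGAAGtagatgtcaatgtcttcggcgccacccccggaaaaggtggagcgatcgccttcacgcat
Cox6a1 (chr5:115348959-115349108, minus strand): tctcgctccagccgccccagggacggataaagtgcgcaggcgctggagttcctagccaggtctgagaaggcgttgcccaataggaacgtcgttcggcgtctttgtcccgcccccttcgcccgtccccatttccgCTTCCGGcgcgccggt
Uqcrc1 (chr9:108936498-108936647, plus strand): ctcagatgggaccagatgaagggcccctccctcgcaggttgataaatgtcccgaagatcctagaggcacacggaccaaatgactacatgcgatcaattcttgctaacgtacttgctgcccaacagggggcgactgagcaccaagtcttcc
Atp5b (chr10:128083157-128083306, plus strand): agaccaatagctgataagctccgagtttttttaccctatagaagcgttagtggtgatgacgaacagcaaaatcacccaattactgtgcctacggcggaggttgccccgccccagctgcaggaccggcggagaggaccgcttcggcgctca

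Regulators known to act on such promoters had fold changes of either sign. Gabpa, the DNA-binding subunit of GABP, measured 74.3 and 88.5 CPM in the saline libraries and 57.6 and 61.4 CPM in the treated libraries, a log2 fold change of -0.45 ± 0.17 (adjusted p = 0.187). Its partners Gabpb1 and Gabpb2 stood at -0.23 ± 0.19 and -0.24 ± 0.20. Esrra, a nuclear receptor that acts on respiratory genes, measured 36.6 and 37.5 CPM in the saline libraries and 49.99 and 50.3 CPM in the treated libraries, a log2 fold change of 0.43 ± 0.16 (adjusted p = 0.174). The groups were apart for Gabpa and for Esrra. Nrf1, Yy1 and Pprc1 stood at -0.19 ± 0.18, 0.04 ± 0.21 and -0.28 ± 0.16, the mitochondrial transcription genes Tfam, Tfb1m, Tfb2m and Polrmt at -0.04 ± 0.20, 0.47 ± 0.37, -0.30 ± 0.22 and 0.04 ± 0.24, and Ppargc1b and Perm1 at -0.67 ± 0.45 and -0.33 ± 0.37. Ppargc1a, the coactivator best known for driving mitochondrial biogenesis, did not pass the filter, at 0.2501 and 0.202 CPM in the saline libraries and 0.3400 and 0.3901 CPM in the treated libraries. In all, 1 of the 13 tested regulators was higher and 1 lower at an unadjusted p under 0.05, against 11 and 12.2% of all tested genes. The part of these regulators in the members' values was not tested.

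Assembly factors build the complexes without staying in them. For complex IV, 6 of 22 were higher and 1 lower at an unadjusted p under 0.05, against 11 and 12.2% of all tested genes. With the trend on coding length removed, 4 were higher and 2 lower, and the median of this list went from 0.34 to 0.058. Cox14, needed for the synthesis of the first core subunit, measured 27.7 and 33.5 CPM in the saline libraries and 69.99 and 60.8 CPM in the treated libraries, and Pet100 measured 5.001 and 7.68 CPM in the saline libraries and 20.9 and 15.6 CPM in the treated libraries, at log2 fold changes of 1.10 ± 0.18 (adjusted p = 0.116) and 1.53 ± 0.32 (adjusted p = 0.116). For complex III, 2 of 6 were higher, Uqcc2 at 1.01 ± 0.27 and Uqcc3 at 0.75 ± 0.24, which both act on the assembly of cytochrome b. For complex V, 1 of 5 was higher, Fmc1, at 1.06 ± 0.25, while Tmem242 stood at 0.44 ± 0.21. With the trend on coding length removed, 1 assembly factor was higher for each of complexes III and V. For complex II, 0 of 4 were in the quasi-likelihood test, the exact test or DESeq2, with Sdhaf2 at 0.27 ± 0.17 and Sdhaf3 at 0.62 ± 0.42.

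The other genes of the respiratory chain were counted in the same way. Nuclear complex I genes were higher at an unadjusted p under 0.05 in 21 of 37 and lower in 0, against 11 and 12.2% of all tested genes. Their median log2 fold change was 0.56, with Ndufb4 and Ndufs6 at 1.06 ± 0.20 and 0.81 ± 0.18. Of the 12 tested mitochondrially encoded subunits 11 were higher and 0 lower, with a median of 0.75 and mt-Atp6 and mt-Nd4 at 1.62 ± 0.18 and 1.01 ± 0.21, and the share of all counts on the mitochondrial chromosome was 1.13 and 1.17% in saline and 2.09 and 1.84% after treatment. Among 8 subunits and carriers with other names 3 were higher, among them Cyc1 of complex III at 0.57 ± 0.17 and Etfb at 1.20 ± 0.35. For the TCA cycle, 0 of 14 genes listed beside complex II, which is its membrane-bound step, were at that p in the quasi-likelihood test, the exact test or DESeq2. Their median was -0.04, and the smallest p were those of Suclg2 at -0.38 ± 0.16 (adjusted p = 0.223) and Cs at -0.34 ± 0.16 (adjusted p = 0.242). Of 13 genes of mitochondrial membranes and protein import 0 were at that p by these tests, with a median of 0.03 and Vdac1 and Vdac2 at -0.31 ± 0.16 and -0.29 ± 0.15. Coding lengths were not matched between these lists. With the trend on coding length removed, 4 complex I genes were higher and 1 lower, with a median of 0.17. Of the mitochondrially encoded subunits 11 were higher and 0 lower in that fit, with a median of 0.69. The 8 subunits and carriers had 2 higher and 0 lower, the TCA cycle 0 and 1, and the membrane and import genes 0 and 2. Ribosomal proteins, which are also short, had medians of 0.31 over 81 cytosolic and 0.39 over 77 mitochondrial genes, with 21 higher and 0 lower at an unadjusted p under 0.05 in either set. With the same trend removed, 2 cytosolic genes were higher and 7 lower, and 7 mitochondrial genes were higher and 0 lower.

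Per kilobase of listed gene length, the members were far from equal in saline. Cox8a, Cox6a1 and Cox4i1 stood highest, at 344, 326 and 302 CPM per kilobase on average, followed by Atp5a1 and Atp5b at 243 and 229.5. After treatment the same 5 genes led, at 468, 435, 453, 224 and 227 CPM per kilobase. In complex II Sdhd led, at 94.8 in saline and 129 after treatment, over Sdha, Sdhc and Sdhb, which lay between 39.5 and 45.5 in saline. In complex III Uqcrh went from 81.8 to 169.7 and Uqcr10 from 111 to 186, the top 2 of that complex after treatment. The lowest tested members were Cox6a2, Cox7a1 and Cox4i2, at 0.895, 1.76 and 4.08 CPM per kilobase in saline. This scale rests on the listed gene length, which for Atp5l was 6443 bases with 309 of them coding, so values of genes with long untranslated or alternative parts are low on it.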

How the data were processed

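Bulk RNA sequencing of poly(A) RNA from 2 saline and 2 ADC/cmLumiOpto samples was examined, grouped by the sample titles. The authors deposited raw read counts per gene, as whole numbers without normalization, for 56748 genes. The paper's methods state HISAT2 and GRCm38, the submitters' processing notes list mm39, HISAT2, HISAT and TopHat2, and the program that counted the reads and the strand setting are not given in the sources used here. Of 52073 gene identifiers shared with GENCODE M21 on GRCm38, 1472 had the same start and end, so the count table's genes are given by symbol, identifier and chromosome, and coordinates are printed only for RefSeq promoters of GRCm38.p6.

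Counts were fitted in R 4.3.3 with edgeR 4.0.16 (filterByExpr at its default minimum of 10 counts and total of 15, TMM, glmQLFit and glmQLFTest, Benjamini-Hochberg adjustment over 15320 genes, threshold 0.05). A prior count of 0.125 went into the log2 fold changes, whose standard error is their size over the square root of F. TMM factors were 0.973 to 1.04, and log2 CPM of replicates correlated over genes at r of 0.973 in saline and 0.970 after treatment. DESeq2 1.42.0, the edgeR exact test, other scalings and filters, a block for the replicate number, a trend on gene length (lowess span 0.3) and each sample left out were alternatives. Trends on GC content and coding length were chosen after seeing the data. The main fit, the exact test, DESeq2, the replicate block and the fit with library size alone were tested on simulated counts. The simulated counts had the same dispersion for every gene and no length trend. The other alternatives, among them the fits with a trend removed or a sample left out, were not tested in this way. Members and lists were chosen with earlier results of these data known. Genes named were the 4 Sdh genes, the 4 smallest and 2 largest p of complexes III, IV and V, core subunits, paralog families, members that failed the filter, the 2 smallest p of each pathway list and all tested regulators. The other members, Myl2 and the mural and cardiac genes were added for completeness or beside a result.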

Additional observations from a re-analysis of the deposited data

How the results depend on the processing

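The tested members, 44 in the main setting, 43 to 46 under other filters and 44 or 45 with a sample left out, had a positive median under each alternative. The number of all genes past an adjusted p of 0.05 was 0 with the quasi-likelihood test, 1353 with DESeq2, 1170 with the exact test, 2259 with no filter beyond 1 count and, leaving out 1 sample, 0 to 218, and the number of members was 8, 5 and 9 in the first 3 of these alternatives and 0 with any sample left out. Members at an unadjusted p under 0.05 and higher went from 13 to 21 with library size alone and with upper-quartile factors, to 22 with no filter, to 5 with the coding length trend removed and to 6 to 27 without 1 sample. Members with both treated values above went from 29 to 18 with the gene length trend removed, with or without the GC trend, to 15 with the coding length trend and to 30 to 41 without 1 sample, where 3 libraries meet the condition more easily, so that this range says nothing about stability. Members with both below went from 2 to 1 with library size alone or at least 10 counts in every sample, 0 with upper-quartile factors, 6 with each length trend and, with the same limit, 2 to 10 without 1 sample. The median log2 fold change went from 0.44 to 0.15 with the gene length trend, 0.16 with the GC trend as well, 0.047 with the coding length trend and 0.17 to 0.58 without 1 sample.

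Some members changed sign. Atp5b was 0.029 with library size alone, 0.073 with upper-quartile factors, 0.025 with at least 10 counts in every sample and 0.015 with protein-coding genes only; Sdha was 0.023 with upper-quartile factors, and Atp5d was -0.0042 with no filter. With the gene length trend removed, Sdhb was -0.085, Sdhc -0.052, Uqcrb -0.13, Uqcrfs1 -0.23, Cox7a2l -0.14 and Atp5d -0.23. With the GC trend removed too, Sdhb was -0.073, Sdhc -0.042, Uqcrb -0.24, Uqcrc2 -0.00080, Uqcrfs1 -0.23, Cox5a -0.0087, Cox7a2l -0.13, Atp5d -0.15 and Atp5b 0.012. With the coding length trend removed, Sdhb was -0.028, Sdhc -0.26, Sdha 0.067, Uqcrb -0.21, Uqcrfs1 -0.077, Cox7c -0.051, Cox7b -0.0045, Cox8a -0.092, Cox6b1 -0.036, Cox7a2 -0.14, Cox5a -0.047, Cox7a2l -0.20, Atp5mpl -0.026, Atp5g2 -0.046, Atp5g3 -0.085, Atp5g1 -0.18, Atp5d -0.28 and Atp5b 0.048. Leaving out 1 sample gave -0.16 to 0.11 for Atp5b, -0.023 to 0.50 for Atp5c1, -0.067 to 0.062 for Atp5d, -0.059 to 0.36 for Atp5g1, -0.076 to 0.27 for Sdhb, -0.073 to 0.10 for Sdhc, -0.086 to 0.44 for Uqcrb, -0.032 to 0.36 for Uqcrc2 and -0.070 to 0.19 for Uqcrfs1. The cause of these changes was not tested.

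The replicate block called 607 genes, 2 of them members (Uqcrh and Atp5e), and turned Atp5d to -0.00034. Deviations of same-numbered samples correlated at r = 0.0985 over genes, so the numbers were not taken as pairs. With a sample left out, the lone sample of its group is assumed to vary like the other group. As raw counts, the mean share of Cox4i2 was 0.683% in saline and 1.41% after treatment, that of Cox7a1 0.261 and 0.452%, and that of Atp5g1 12.8 and 11.98%. Depth limits Cox6a2, Cox7a1, Cox6b2 and Cox8b, which had few counts.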
